A study of Mus musculus with 9 samples.

Results

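The 10 genes described here encode the adaptor, scaffold, exchange factor and GTPase proteins of engulfment signalling: Crk, Elmo1, Elmo2, Dock1, Dock2, Rac1, Rac2, Rhoa, Cdc42 and Gulp1. They were chosen by name, as the rows of the deposited tables whose Ensembl identifier maps to these mouse symbols, and all 10 were found among 34866 listed genes. RNA was sequenced from cultured mouse primary macrophages, with 9 libraries in 3 groups of 3 biological replicates. The standard group was cultured for 7 days in standard oxygen. In the acute group standard culture was followed by 3 hours at 1% oxygen. The chronic group was kept at 1% oxygen for 7 days. Every group grew with L929-conditioned medium, L929 being fibroblast cells that secrete a macrophage growth factor. The labels do not name the animals or cultures behind the replicates, so p-values measure the spread between these samples. The labels give neither the mouse strain nor the tissue from which the macrophages came, and the study concerned how limited oxygen relates to efferocytosis, the uptake of dying cells.

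A macrophage takes up a dying cell by folding an actin-rich cup around it. In a conserved route, receptors on the cup act through the adaptor CRK and through a complex of an ELMO scaffold with a DOCK protein, an exchange factor that loads the small GTPase RAC with GTP. Active RAC drives branched actin through the WAVE and Arp2/3 complexes, CDC42 acts on actin through WASP proteins, and RHOA, which drives contraction, generally opposes uptake. GULP1 is the adaptor of a parallel route that binds the tails of LRP1 and stabilin receptors. Levels are given in TPM, the number of a gene's transcripts corrected for length and scaled to a fixed library total. Genes can therefore be compared with each other within a library, but each value depends on all others.

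The libraries differed in more than oxygen. Samples of different groups share digits in their descriptions, here called codes X, Y and Z, with 1 library of each code per group, and what the digits mean is not stated. The 3 libraries of code Z stood apart from the other 6 on the first principal component, which held 36.9% of the variance over 11065 genes. In the code Z libraries C1qa, a complement gene of mature macrophages, was 0.91 to 3.41 TPM, against 65.3 to 443 TPM in the others. All 12 genes of a macrophage marker list averaged at least 1 TPM. Their summed level was 62450 to 71520 TPM in standard oxygen, 56640 to 75610 in acute and 64160 to 69820 in chronic hypoxia. Markers of B cells, T cells, mast cells and dendritic cells summed to under 2 TPM in every library, and those of fibroblasts to at most 2.15 TPM. A neutrophil list summed to 899 to 1596 TPM in standard oxygen, 941 to 1910 in acute and 260.2 to 585 in chronic hypoxia. Nearly all of it was S100a8, which monocytes also express, while Elane averaged under 0.1 TPM. S100a9 was listed at 0 in all libraries but 1. Why it was so low beside S100a8 was not tested, so it is not used to judge which cells were present. Of the 9 neutrophil genes listed, 3 averaged at least 1 TPM: S100a8, Ngp and Camp. Ngp was 3.27 to 3.81 TPM in standard and acute libraries X and Y, and at most 0.368 TPM in the others. Camp was 0.133 to 2.03 TPM over all libraries. Among 4 endothelial markers only Pecam1, which macrophages also express, was above 1 TPM, at 10.8 to 21.9 TPM in standard oxygen, 15.2 to 24.9 in acute and 39.2 to 42.7 in chronic hypoxia. The part of these shifts in the results below was not tested. The number of genes at 1 TPM or more was 10724 to 11208 per library, and TPM keeps no record of sequencing depth, so no counting error could be given.

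The GTPases were the most abundant of the 10 genes. Rac2, the RAC of blood cells, had the highest mean over the 9 libraries, 1171 TPM, which ranked 114 among all listed genes. It was followed by Cdc42 at 591 TPM, Rhoa at 417 TPM and the ubiquitous Rac1 at 336 TPM. The haematopoietic exchange factor Dock2 averaged 77.3 TPM, Elmo2 50.5 TPM, Crk 45.0 TPM, Elmo1 27.1 TPM and the broadly expressed Dock1 13.6 TPM. Gulp1 averaged 0.474 TPM. In bulk RNA, fewer cells of a kind and less RNA per cell cannot be told apart. This order held in 9 of 9 libraries for each neighbouring pair except Elmo2 and Crk, where Elmo2 was higher in 6 of 9. In standard oxygen these last genes did not differ beyond their spread (41.9 ± 6.32 TPM for Elmo2, 40.0 ± 3.82 TPM for Crk, SD, n = 3). Rac1, Rac2, Rhoa and Cdc42 together held 80.7% ± 1.23 of the summed TPM of all GTPase genes listed here in standard oxygen, 79.3% ± 1.70 in acute and 81.5% ± 1.79 in chronic hypoxia (SD, n = 3).

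**Figure D1:**
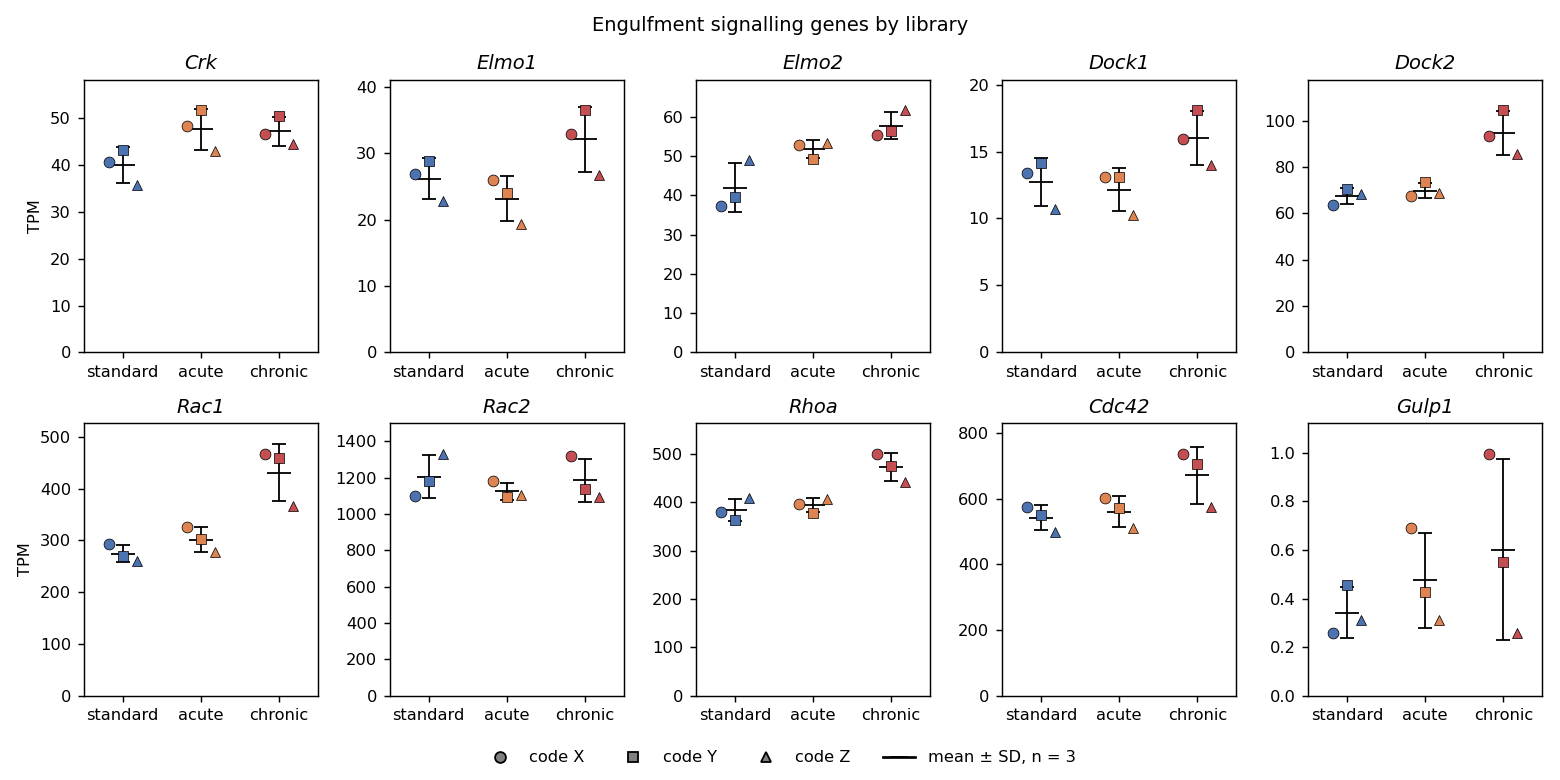
Level in TPM (vertical axes, from 0) of each of the 10 genes in the 9 libraries, grouped by oxygen condition (horizontal axis); symbols give the sample code and bars the mean ± SD of 3 libraries. The 3 chronic hypoxia libraries lie above all others for Rac1 (366.8 to 468 TPM) and Dock2 (85.6 to 104.5 TPM), while the Rac2 groups overlap.

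Chronic hypoxia was first set against standard oxygen, to see which of these genes differ after 7 days in 1% oxygen. Rac1 had the highest log2 fold change of the 9 genes that reached a mean of 1 TPM and were tested, and the levels of Dock2 and Elmo2 were also higher in chronic hypoxia. Each comparison was fitted in limma unblocked and blocked, that is, with the sample code as a block. At a Benjamini-Hochberg adjusted p of 0.05 the unblocked fit called 0 of 9 members and 2.69% of 11067 genes. At an unadjusted p of 0.05 it had 4 of 9 members, beside 2533 of the 11067 genes. In the blocked fit 4 of 9 passed (Rac1, Dock2, Elmo2 and Cdc42), all higher, beside 15.1% of all genes tested that passed as higher. TPM shifted as a whole: the median log2 fold change of all genes was 0.162, against 0.303 for the 9 genes. After median-of-ratios rescaling, which sets the median of all genes to -0.002, only Rac1 passed in the blocked fit, beside 5.53% of all genes that passed as higher. The 3 chronic libraries lay above all 3 standard libraries for 5 of 9 genes (Crk, Elmo2, Dock2, Rac1 and Rhoa), and 24.2% of all genes showed that. Within pairs of the same code 8 of 9 genes were higher in 3 of 3 pairs, a pattern of 46.9% of all genes. Unblocked but without the 3 code Z libraries, 5 of 9 passed, all higher (Rac1, Elmo2, Dock2, Rhoa and Cdc42), beside 17.0% of all genes. Leaving out standard library Z alone let Elmo2 pass (0.0456), and leaving out chronic library Z alone Rac1 (0.0221) and Dock2 (0.04998).

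Rac1 (ENSMUSG00000001847, chr5:143503634-143528036 on the minus strand) encodes the RAC protein that ELMO and DOCK activate in most cells. In libraries X, Y and Z it was 293, 269.9 and 261 TPM in standard oxygen and 468, 459 and 367 TPM in chronic hypoxia. Every chronic library was above every standard library, with code Z the lowest in both groups. The means were 274.7 ± 16.4 and 431 ± 55.9 TPM (SD, n = 3), a ratio of 1.57. The log2 fold change, on the log2(TPM + 1) scale, was 0.64 with an SE of 0.126 and a 95% interval of 0.34 to 0.94, above that of 90.9% of genes tested. The adjusted p was 0.0539 unblocked and 0.0149 blocked. Rescaling the blocked fit gave 0.46 with an adjusted p of 0.0299, and the title numbers of the replicates as a block gave 0.181. Without the code Z libraries the log2 fold change was 0.72, with an adjusted p of 0.00518. The last exons of Rac1 overlap those of Daglb on the opposite strand over 2309 bases, and 54.7% of the longest Rac1 transcript, in stretches of 75 bases, also occurs there. Whether the authors' counting used strand is not given in the sources used here, so reads from this stretch could be assigned to either gene or to none. Daglb was 9.96 ± 1.77 TPM in standard oxygen, 9.28 ± 2.18 in acute and 9.64 ± 2.43 in chronic hypoxia (SD, n = 3), far below Rac1 in every group.

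Rac2 (ENSMUSG00000033220, chr15:78559167-78572783 on the minus strand) is the RAC protein of blood cells, which also serves the phagocyte oxidase. Its level was 1099, 1180 and 1332 TPM in standard libraries X, Y and Z and 1321, 1139 and 1094 TPM in chronic libraries X, Y and Z. The groups overlapped, and the chronic library was higher in code X and lower in codes Y and Z. The log2 fold change of -0.02 had a 95% interval of -0.33 to 0.28 and an adjusted p of 0.934 unblocked and 0.904 blocked. It was -0.21 after rescaling and 0.11 without the code Z libraries, so it has no settled sign.

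The exchange factors and scaffolds lay between these. Dock2 (ENSMUSG00000020143, chr11:34226815-34783892 on the minus strand), the main RAC exchange factor of leukocytes, was 63.7, 70.4 and 68.4 TPM in standard libraries X, Y and Z and 93.5, 104.5 and 85.6 TPM in the chronic libraries. The groups did not overlap, and the ratio of the means was 1.40. Dock2 had a log2 fold change of 0.48 ± 0.108 (SE), with an adjusted p of 0.0749 unblocked, 0.0244 blocked and 0.0744 blocked and rescaled. Elmo2 (ENSMUSG00000017670, chr2:165288031-165326479 on the minus strand), a scaffold that holds DOCK in its active form, was 37.2, 39.5 and 49.1 TPM in standard and 55.2, 56.3 and 61.7 TPM in chronic libraries X, Y and Z. Here code Z was the highest library of both groups. For Elmo2 the log2 fold change was 0.46 ± 0.13 (SE) and the adjusted p 0.112 unblocked, 0.0251 blocked and 0.0820 blocked and rescaled.

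Elmo1 (ENSMUSG00000041112, chr13:20090596-20608353 on the plus strand), the related scaffold first tied to engulfment, was 26.8, 28.9 and 22.8 TPM in standard libraries X, Y and Z. In chronic hypoxia it was 33.0, 36.5 and 26.8 TPM, so the groups overlapped through code Z while each pair was higher. This is a log2 fold change of 0.28, with an adjusted p of 0.323 unblocked and 0.0562 blocked. Dock1 (ENSMUSG00000058325, chr7:134670654-135173639 on the plus strand), the DOCK of the classical engulfment complex, was 13.4, 14.1 and 10.7 TPM in standard and 15.96, 18.1 and 14.0 TPM in chronic libraries X, Y and Z. The difference of 0.31 on the log2 scale had an adjusted p of 0.278 unblocked and 0.0620 blocked. Neither passed, although each was higher in 3 of 3 pairs.

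Cdc42 (ENSMUSG00000006699, chr4:137319696-137357720 on the minus strand), a GTPase that acts on actin and cell polarity, was 575, 551 and 499.7 TPM in standard libraries X, Y and Z and 737, 704 and 574 TPM in chronic libraries. Chronic library Z fell within the range of the standard group. Cdc42 had a log2 fold change of 0.30 ± 0.13 (SE), with an adjusted p of 0.229 unblocked, 0.0465 blocked and 0.288 blocked and rescaled. Rhoa (ENSMUSG00000007815, chr9:108306129-108337934 on the plus strand), the GTPase of contraction, was 379, 364 and 409.5 TPM in standard and 500.3, 475 and 443 TPM in chronic libraries X, Y and Z. The groups did not overlap, yet the log2 fold change of 0.30 had an adjusted p of 0.150 unblocked, 0.0711 blocked and 0.390 blocked and rescaled. Without the code Z libraries Rhoa and Cdc42 both passed unblocked (0.0198 and 0.0239). Crk (ENSMUSG00000017776, chr11:75679259-75706908 on the plus strand), the adaptor upstream of DOCK1, averaged 40.0 ± 3.82 TPM in standard oxygen and 47.2 ± 3.09 TPM in chronic hypoxia (SD, n = 3). Each chronic library was above all standard libraries, with a log2 fold change of 0.24 and an adjusted p of 0.263 unblocked and 0.0731 blocked.

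Gulp1 (ENSMUSG00000056870, chr1:44551511-44796838 on the plus strand) was below the mean of 1 TPM needed for a test in every comparison. It was 0.258, 0.458 and 0.311 TPM in standard libraries X, Y and Z, 0.692, 0.426 and 0.310 TPM in acute libraries and 0.997, 0.551 and 0.258 TPM in chronic libraries. The groups overlapped, and values this low carry no known counting error.

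**Figure D2:**
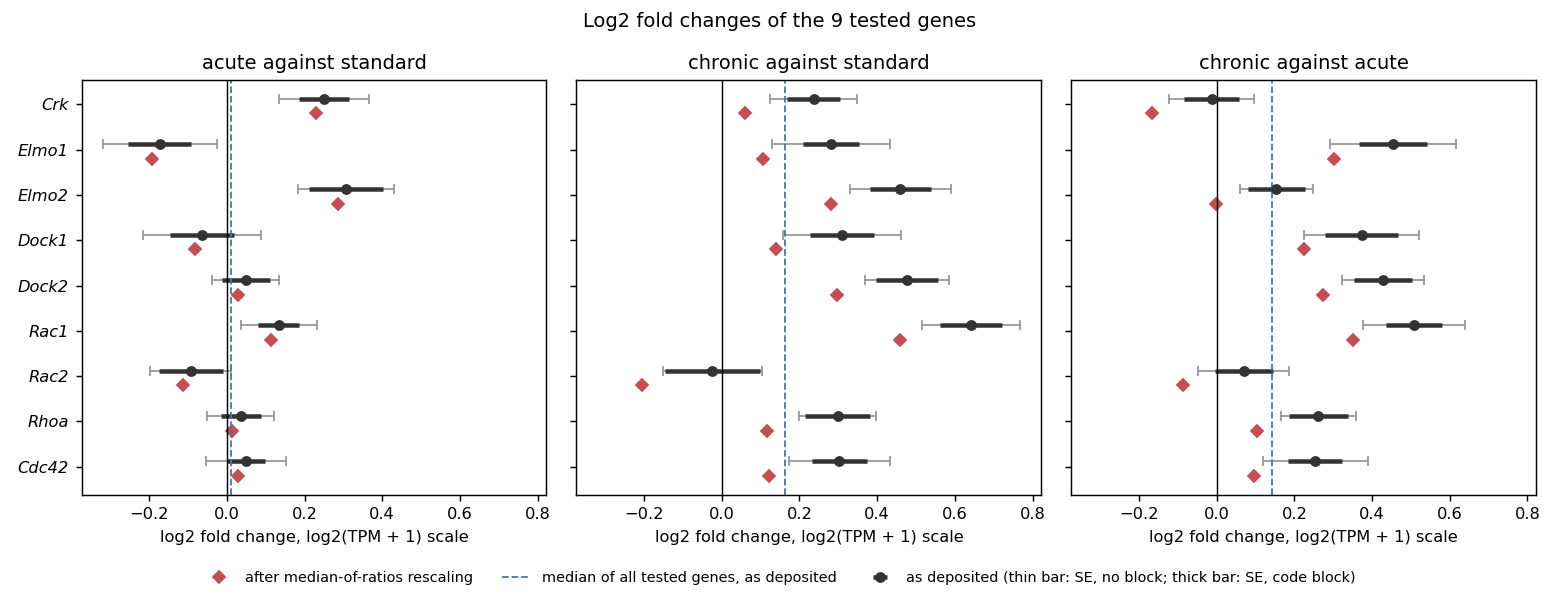
Log2 fold change (horizontal axis, log2(TPM + 1) scale) of the 9 tested genes in each comparison; black points are values as deposited, with the SE unblocked (thin bar) and blocked (thick bar), red diamonds are values after rescaling, and the dashed line is the median of all tested genes. In chronic hypoxia against standard oxygen Rac1 has the highest value, 0.64 as deposited and 0.46 after rescaling, and Rac2 lies at -0.02.

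Upstream sequence is shown for the genes that passed against standard oxygen in the blocked fit and have an entry in the promoter table of RefSeq (GRCm38.p6), which matched 8 of the 10 genes (not Rac1 and Rac2). Each line gives the 250 bases before the annotated start, 5′ to 3′ on the strand of the gene. The windows were searched on both strands for ACGTG and GCGTG, core forms of the motif that hypoxia-inducible factors bind, and matches are in capitals (one on the opposite strand is printed as its reverse complement). The motifs can share bases with each other, and no overlapping matches occurred here.
Dock2, minus strand, chr11:34783906-34784155: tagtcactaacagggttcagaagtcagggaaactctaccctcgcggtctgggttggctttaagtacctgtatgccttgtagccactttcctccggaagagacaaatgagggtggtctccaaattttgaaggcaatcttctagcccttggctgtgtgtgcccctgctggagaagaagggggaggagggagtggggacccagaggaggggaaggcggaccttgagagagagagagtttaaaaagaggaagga
Elmo2, first start, minus strand, chr2:165326480-165326729: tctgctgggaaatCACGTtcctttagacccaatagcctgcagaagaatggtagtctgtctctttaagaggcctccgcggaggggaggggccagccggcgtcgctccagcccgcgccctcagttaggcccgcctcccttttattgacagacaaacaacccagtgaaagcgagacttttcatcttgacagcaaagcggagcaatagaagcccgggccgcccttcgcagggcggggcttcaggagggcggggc
Cdc42, minus strand, chr4:137357760-137358009: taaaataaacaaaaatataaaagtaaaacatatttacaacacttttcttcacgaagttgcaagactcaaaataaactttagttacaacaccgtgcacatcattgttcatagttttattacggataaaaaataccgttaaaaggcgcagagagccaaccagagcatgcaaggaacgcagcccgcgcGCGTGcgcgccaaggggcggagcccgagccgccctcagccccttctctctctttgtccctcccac
The Elmo2 window shown held 1 match, to ACGTG on the opposite strand, at position -237 from the start. Elmo2 has 3 annotated starts. The window of the second, chr2:165320827-165321076, held GCGTG at position -155, and that of the third held neither motif. The Cdc42 window held 1 match to GCGTG, at position -65. Neither motif was found in the Dock2 window. Among the other genes GCGTG was found upstream of Dock1 (position -135), of 1 of 2 starts of Rhoa (-128) and of 1 of 2 starts of Elmo1 (-85). In the blocked fit of the 6 libraries compared, Elmo1 passed only in chronic against acute hypoxia. Over all 12 annotated starts of the 8 genes, 6 windows held either motif, and 38.6% of 32851 promoter windows of the same length did. A match is a description of the letters and was not tested against expression.

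Acute hypoxia was set against standard oxygen to see which of these genes differ within 3 hours. None of the 9 tested members passed in limma, where 0.0273% of 10987 genes passed unblocked and 0.710% blocked. At an unadjusted p of 0.05 there were 1 of 9 unblocked and 2 blocked, beside 785 and 1555 of the 10987 genes. Elmo2 had the highest log2 fold change, 0.31 ± 0.124 (SE). It was 52.9, 49.2 and 53.3 TPM in acute libraries X, Y and Z, each above all 3 standard libraries, and its adjusted p was 0.677 unblocked and 0.273 blocked. Only Elmo2 had groups that did not overlap, a pattern seen as higher in 7.63% of all genes. Crk was 48.4, 51.8 and 43.1 TPM in acute libraries X, Y and Z, and the standard group reached 43.4 TPM. Within pairs of the same code Crk was higher by 0.241 to 0.259 on the log2 scale, and its log2 fold change of 0.25 had an adjusted p of 0.765 unblocked and 0.215 blocked. Of the 9 members 5 were higher in 3 of 3 pairs, a pattern of 20.9% of all genes.

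Rac1 was 326, 302 and 277 TPM in acute libraries X, Y and Z, between the standard and chronic levels in every code. Its log2 fold change against standard oxygen was 0.13, with a 95% interval of -0.10 to 0.37 and an adjusted p of 0.951 unblocked and 0.361 blocked. Elmo1 was 26.0, 24.1 and 19.4 TPM and Dock1 13.1, 13.1 and 10.3 TPM in the same libraries. Each of these genes was lower than standard oxygen in 3 of 3 pairs, a pattern of 16.9% of all genes, with log2 fold changes of -0.17 and -0.06 that did not pass (blocked adjusted p of 0.423 and 0.775). Dock2 at 69.8 ± 3.06 TPM, Rhoa at 394 ± 14.2 TPM, Cdc42 at 561 ± 46.3 TPM and Rac2 at 1125 ± 46.8 TPM (SD, n = 3) had log2 fold changes between -0.09 and 0.05.

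Chronic was then set against acute hypoxia. These groups differ in the time spent in 1% oxygen. The acute group also had a standard culture before it, and these differences cannot be told apart here. The unblocked limma fit called 0 of 9 members and 0.695% of 11087 genes. At an unadjusted p of 0.05 it had 5 of 9 members, beside 2305 of the 11087 genes. In the blocked fit, which here pairs the libraries as the title numbers do, Rac1, Dock2 and Elmo1 passed, all higher in chronic hypoxia, beside 12.1% of all genes that passed as higher. After rescaling only Rac1 passed blocked, beside 4.73% of all genes. Unblocked but without the code Z libraries, Rac1, Dock2, Elmo1 and Rhoa passed, 4 of 9 and all higher, beside 12.8% of all genes. Leaving out chronic library Z alone let Rac1 pass (0.0490). Rac1 had a log2 fold change of 0.51 ± 0.132 (SE), and an adjusted p of 0.113 unblocked, 0.0169 blocked and 0.0432 blocked and rescaled. Dock2 had 0.43 with a blocked adjusted p of 0.0249, and 0.0797 after rescaling. Elmo1 had 0.45 with a blocked adjusted p of 0.0309, and 0.0841 after rescaling.

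Relative to standard oxygen, Elmo1 and Dock1 were each lower in 3 of 3 acute pairs and higher in 3 of 3 chronic pairs. The acute differences of Dock1 were small, -0.035, -0.101 and -0.052 on the log2 scale in codes X, Y and Z. The share of all genes with this joint pattern was not computed, so it is not shown to be particular to these genes. All 3 chronic libraries lay above all 3 acute libraries for Elmo1, Elmo2, Dock1, Dock2, Rac1 and Rhoa, 6 of 9 genes, and 22.3% of all genes showed that. Within pairs 7 of 9 were higher in 3 of 3, a pattern of 43.5% of all genes. Dock1, with a log2 fold change of 0.37, had a blocked adjusted p of 0.0539. Rhoa (0.26) and Cdc42 (0.25) had 0.0756 and 0.0664. Crk at -0.01, Rac2 at 0.07 and Elmo2 at 0.15 lay near 0, and after rescaling they were -0.17, -0.09 and -0.002. Acute and chronic hypoxia were compared with the same standard libraries, so the values of both are set side by side without a count of shared signs.

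Ratios within a library do not depend on the scaling between libraries. The ratio of Rac2 to Rac1 in TPM was 4.41 ± 0.675 in standard oxygen, 3.74 ± 0.211 in acute and 2.76 ± 0.256 in chronic hypoxia (SD, n = 3). In libraries X, Y and Z the ratio was 3.75, 4.37 and 5.10 in standard oxygen and 2.82, 2.48 and 2.98 in chronic hypoxia, so all 3 chronic values lay below all 3 standard values. Rac2 made up 81.3% ± 2.33 of the summed TPM of Rac1 and Rac2 in standard oxygen and 73.3% ± 1.86 in chronic hypoxia (SD, n = 3). Reads from the overlap of Rac1 with Daglb could be assigned to either gene or to none, so the size of ratios to Rac1 is uncertain. The ratio of Cdc42 to Rac1 was 1.97 ± 0.0637 in standard oxygen, 1.86 ± 0.0281 in acute and 1.56 ± 0.0217 in chronic hypoxia (SD, n = 3). Its acute values also lay below all standard values. That of Rhoa to Rac1 was 1.40 ± 0.145 in standard oxygen and 1.10 ± 0.0908 in chronic hypoxia (SD, n = 3). Crk to Rac1 was 0.146 ± 0.0130 in the standard, 0.158 ± 0.0118 in the acute and 0.110 ± 0.0107 in the chronic group (SD, n = 3). These 4 ratios have Rac1 as denominator, so they are not separate results. Rac1 itself had a log2 fold change against standard oxygen above that of 90.9% of genes tested. For all 4 ratios the chronic values lay below all standard and all acute values. The share of all genes that do so relative to Rac1 was not computed. The exact two-sided permutation p was 0.1 for each of these ratios in chronic hypoxia against either other group. It was also 0.1 for Cdc42 to Rac1 in acute hypoxia against standard oxygen, and 0.1 is the smallest that 3 against 3 libraries can give. Dock2 to Dock1 was 5.38 ± 0.891 in standard oxygen and 5.92 ± 0.174 in chronic hypoxia (exact permutation p of 0.4, SD, n = 3), and Elmo2 to Elmo1 was 1.64 ± 0.45 and 1.84 ± 0.406 (exact permutation p of 0.5). In acute hypoxia Elmo2 to Elmo1 was 2.28 ± 0.411 (SD, n = 3), and its groups overlapped with both others. Over the 6 ratios and 3 comparisons computed, 18 in all, no p could pass an adjustment.

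**Figure D3:**
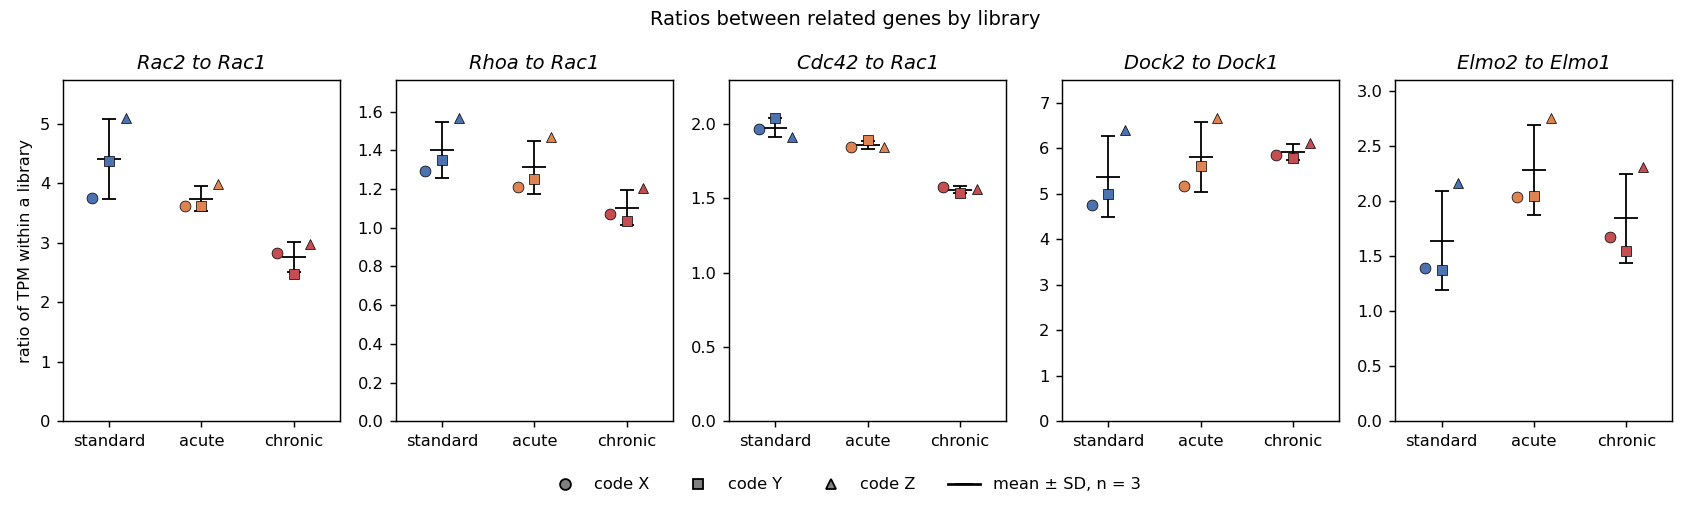
Ratio of TPM within a library (vertical axes, from 0) for 5 gene pairs in the 9 libraries by oxygen condition; symbols give the sample code and bars the mean ± SD of 3 libraries. The ratios to Rac1 are lowest in chronic hypoxia (2.76 for Rac2, 1.10 for Rhoa and 1.56 for Cdc42), and the Dock and Elmo ratios overlap between groups.

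Between codes some of these genes differed by as much as between groups. Dock1 was lower in code Z than the mean of codes X and Y in every group, by log2 differences of -0.335, -0.319 and -0.261 in standard oxygen, acute and chronic hypoxia. For Elmo1 the differences were -0.278, -0.352 and -0.361 in the same order, and for Cdc42 -0.171, -0.199 and -0.328. Elmo2 was higher in code Z, by 0.349, 0.063 and 0.143. Over the 9 libraries Elmo1 and Dock1 had a Pearson correlation of 0.97 and Rac1 and Cdc42 one of 0.938, and the 9 points share codes and groups, so these are descriptions only.

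By the same measure over 9 libraries, among 11065 genes with a mean of at least 1 TPM, the genes most like each member were listed. Rmnd5a (0.994) and Il6st (0.989) were nearest to Dock1, and Rmnd5a (0.982) and Cep120 (0.979) were also the nearest to Elmo1. Msl3 (0.99) and Fcgr3 (0.988) were nearest to Rac1, Myadm (0.991) and Arf5 (0.978) to Rhoa, and Gm6377 (0.989) and Mospd2 (0.988) to Cdc42. Fnbp1 (0.989) and Ppp1r21 (0.988) were nearest to Dock2, Rgs14 (0.982) and Cep170 (0.976) to Elmo2, and Fez2 (0.966) and Thap6 (0.965) to Crk. Rac2 had the lowest of these values, 0.92 with Slc5a6 and 0.906 with Slc50a1.

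Around these members, 139 other genes of the pathway were listed by role, and 120 of them were tested in chronic hypoxia against standard oxygen. The unblocked fit called 5 as higher and 1 as lower, beside 2.10% and 0.596% of all genes. The blocked fit called 28 and 3, beside 15.1% and 3.30%, and after rescaling it called 10 and 8, beside 5.53% and 5.92%. Rnd3, Swap70, Rock2, Myl12a and Lrp1 were the genes higher and Cyfip2 the gene lower in the unblocked fit. Those 6 calls fell to 0 when standard library X or Y or chronic library X or Y was left out, and the count was 10 without chronic library Z.

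For the 5 tested genes of the GULP1 route the median log2 fold change was 0.80, beside 0.162 over all genes. They are the receptors Lrp1 and Stab1, the transporters Abca1 and Abca7, and Arf6, a small GTPase of membrane traffic. Arf6 had 0.12 with a blocked adjusted p of 0.222, and -0.07 after rescaling. Lrp1, a large endocytic receptor that GULP1 binds, averaged 262 ± 40.2 TPM in standard oxygen and 455 ± 41.7 TPM in chronic hypoxia (SD, n = 3). This log2 fold change of 0.80 had an adjusted p of 0.0444 unblocked, 0.0276 blocked and 0.0569 blocked and rescaled. Stab1, a stabilin receptor for phosphatidylserine, had 1.31, with 0.0279 blocked and 0.0477 after rescaling. Abca1, a cholesterol exporter, had 0.95, with 0.00921 blocked and 0.0147 after rescaling. Abca7 had 0.42, with 0.0321 blocked and 0.115 after rescaling. Unblocked, Lrp1 alone of the 5 passed.

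Among the relatives of ELMO and DOCK, Elmod2 (0.59) and Dock11 (0.48) passed in the blocked fit as higher (0.0392 and 0.0446), and had 0.0935 and 0.134 after rescaling. None of the 10 tested passed unblocked. After rescaling Dock10 passed as lower, and was named after its value was seen (-0.45, 0.0289). Of 11 tested adaptors and genes of the RhoG arm, Trio (0.56), Nedd9 (0.54) and Itgb5 (0.51) passed blocked. Trio is an exchange factor that can load RhoG, and Nedd9 belongs to the docking proteins that CRK binds. After rescaling their adjusted p was 0.117, 0.0851 and 0.0519. Itgb5 shares 7.45% of its 75-base stretches with other genes.

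Of 16 other GTPase genes tested, Rnd3 and Rhobtb1 passed in the blocked fit in chronic hypoxia. Rnd3, an atypical GTPase that antagonizes RHOA signalling through ROCK1, averaged 3.26 ± 1.122, 4.98 ± 0.493 and 14.7 ± 0.224 TPM in the standard, acute and chronic groups (SD, n = 3). Against standard oxygen it rose by 1.91 ± 0.198 (SE) on the log2 scale, with an adjusted p of 0.0110 unblocked and 0.00921 blocked. Rhobtb1 had 1.00 and a blocked adjusted p of 0.0262. Both still passed after rescaling (0.0122 and 0.0470). So did Rhod (-0.65, 0.0484) and Rhoq (-0.45, 0.0311) as lower, which had not passed before rescaling and were named after their values were seen.

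The GTPase-activating proteins that passed in the blocked fit were Racgap1 (1.57), Arhgap15 (0.55), Arhgap45 (0.55) and Arhgap1 (0.54), 4 of 13 tested in the list of inhibitors. The other exchange factors that passed were Ect2 (1.01), Swap70 (0.85), Fgd2 (0.41) and Arhgef1 (0.29), 4 of 17 tested. Racgap1 and Ect2 are best known as partners in cytokinesis, the last step of cell division, rather than in uptake. Swap70, a RAC-binding protein of membrane ruffles, averaged 36.5 ± 3.73 TPM in standard oxygen and 66.5 ± 5.56 TPM in chronic hypoxia (SD, n = 3), and passed unblocked (0.0273). After rescaling Racgap1 (0.00871), Arhgap45 (0.0406), Ect2 (0.0183) and Swap70 (0.0296) passed. Arhgap15 (0.0531), Arhgap1 (0.0812), Fgd2 (0.154) and Arhgef1 (0.303) did not, and Vav2, named after its value was seen, passed as lower (-0.51, 0.0359).

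Of 17 tested subunits of WAVE and Arp2/3, the machinery that RAC switches on, 3 passed as higher and 2 as lower in the blocked fit in chronic hypoxia. Cyfip2, a WAVE subunit that binds RAC directly, was 71.2 ± 2.53 TPM in standard oxygen, 58.0 ± 7.42 in acute and 38.2 ± 2.13 in chronic hypoxia (SD, n = 3). Against standard oxygen it fell by 0.88 ± 0.0927 (SE) on the log2 scale, with an adjusted p of 0.0114 unblocked, 0.00711 blocked and 0.00624 blocked and rescaled. Abi3, another WAVE subunit, had -0.89 and a blocked adjusted p of 0.0373, but 65.9% of its 75-base stretches, taken over the longest transcript, occur in another gene, so its value is uncertain. After rescaling it had 0.0359. Arpc2 and Actr2, subunits of Arp2/3, had 0.32 each, with 0.0349 and 0.0309 blocked and 0.220 and 0.207 after rescaling.

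Of 16 tested effectors of CDC42 and RAC, Pak2, a kinase that both GTPases activate, had 0.36 and Cybb, the catalytic subunit of the phagocyte oxidase, -0.33. The blocked adjusted p was 0.0311 and 0.0374, and neither passed unblocked. After rescaling Pak2 had 0.152, while Cybb (0.0208) and Baiap2 (-0.74, 0.0484), named here after its value was seen, passed as lower. Of 15 tested RHOA effectors, Myl12a (0.62), a myosin light chain, and Rock2 (0.55), a kinase that RHOA activates, passed unblocked (0.0460 and 0.0444). The actin-severing protein gene Cfl1 (0.43) passed blocked (0.0230). After rescaling Myl12a passed (0.0242), Rock2 had 0.0528 and Cfl1 0.0804. Cfl1 shares 16.5% of its stretches with other genes and is uncertain.

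**Figure D4:**
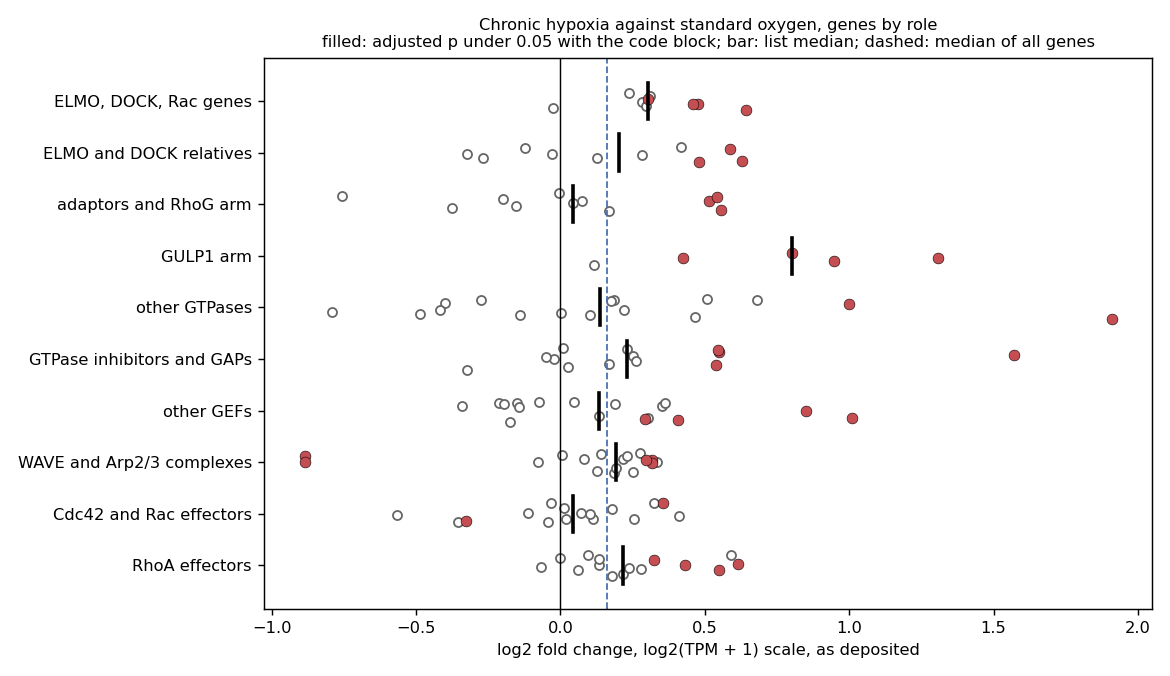
Log2 fold change in chronic hypoxia relative to standard oxygen (horizontal axis, log2(TPM + 1) scale, as deposited) for each tested gene, by role (vertical axis); filled points had a blocked limma adjusted p under 0.05, short bars are list medians and the dashed line is the median of all genes. The GULP1 arm has the highest median, 0.80, and the lowest filled points are Abi3 (-0.89) and Cyfip2 (-0.88) in the WAVE and Arp2/3 list.

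In acute hypoxia against standard oxygen 121 pathway genes were tested, and 0 passed unblocked and 2 blocked, both higher. Abca1 had a standard mean of 22.5 ± 4.43 and an acute mean of 67.6 ± 17.2 TPM (SD, n = 3). Its difference of 1.53 on the log2 scale had an adjusted p of 0.125 unblocked and 0.00871 blocked. Bcar1, the CRK-binding docking protein p130Cas, had means of 2.69 ± 0.597 and 8.11 ± 3.05 TPM (SD, n = 3), a difference of 1.27 with 0.223 unblocked and 0.0457 blocked.

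Between chronic and acute hypoxia 3 of 120 tested pathway genes passed unblocked, all higher, beside 0.550% of all genes that passed as higher and 0.144% as lower. They were Rnd3 (1.39), Swap70 (0.79) and Srgap2 (0.73), a GTPase-activating protein with a membrane-bending domain. Those 3 calls fell to 0 when acute or chronic library X or Y was left out, and were 2 without acute library Z and 8 without chronic library Z. Blocked, 24 passed as higher and 7 as lower, beside 12.1% and 3.42% of all genes, and after rescaling 9 and 10, beside 4.73% and 5.07%. The GULP1 arm split: Stab1 (1.13), Abca7 (0.42) and Lrp1 (0.37) were higher in chronic hypoxia and Abca1 (-0.58) was lower, all passing blocked. Bcar1 (-1.46) and Itgav (-0.60), an integrin subunit that can bind apoptotic cells through bridging proteins, were lower, and Trio (0.60) and Itgb5 (0.42) higher. Dock11 (0.52) and Dock5 (0.42) were the DOCK relatives that passed, both higher.

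Among other GTPase genes Rhof (0.64) passed as higher with Rnd3, and Rhob (-0.31) as lower. Of 5 inhibitors and activating proteins that passed, Racgap1 (1.06) and Srgap2 had the highest values and Arhgap45 (0.45) and Arhgap1 (0.42) the lowest. Of 5 exchange factors that passed, these were Swap70 and Fgd2 (0.75) at the upper end and Arhgef1 (0.51) and Arhgef2 (0.38) at the lower. Abi3 (-0.98) and Cyfip2 (-0.59) were lower and Arpc1b (0.30) higher in the WAVE and Arp2/3 list, and Baiap2 (-0.67), a RAC-binding membrane-bending protein, was the effector that passed. Cit (0.88), Myl12a (0.63), Rock2 (0.47) and Cfl1 (0.35) were the RHOA effectors that passed. Arpc1b and Rhof share 34.4% and 9.1% of their stretches with other genes. After rescaling 14 of the genes named for this comparison no longer passed: Lrp1, Abca7, Itgb5, Dock11, Dock5, Rhof, Arhgap45, Arhgap1, Fgd2, Arhgef2, Arpc1b, Cit, Rock2 and Cfl1, with adjusted p-values of 0.0583 (Dock11) to 0.245 (Arpc1b). Bcar1 was 2.32 ± 1.19 TPM in chronic hypoxia (SD, n = 3), near its level in standard oxygen, and Abca1 was 45.0 ± 12.5 TPM (SD, n = 3), between the other groups.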

How the data were processed

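The 3 tables of TPM deposited by the authors, 1 for each pair of groups, were joined. Each of the 9 libraries had identical values in both tables that held it. The submitters' processing notes name FastQC, STAR, featureCounts and the build GRCm38. Their versions, the annotation and the TPM formula are not given in the sources used here. Symbols matched 34582 of 34866 identifiers, and coordinates are those of GENCODE M21 (GRCm38).

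Each comparison was fitted on its 6 libraries with limma 3.58.1 in R 4.3.3 (moderated by eBayes, trend on, two-sided) on values of log2(TPM + 1), over genes with a mean of at least 1 TPM, and p-values were adjusted over all of them by the Benjamini-Hochberg method. The script was tested on simulated data. Deviations from the group means correlated between libraries of the same code with r of 0.378 to 0.633 over 9 pairs, across genes. The code, shared digits of the labels' descriptions, was therefore used as a block beside the fit without one. The title numbers gave -0.515 to 0.633.

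All 10 members are named, with the pathway genes that passed in either fit (in a list with over 4, the 2 highest and 2 lowest; some are not reported here) and the 2 most correlated genes per member. Members and lists were chosen with earlier results of these data known. Alternatives were the pseudocount, the filter, the trend, rescaling, all 9 libraries in 1 fit, the blocks and leaving out each library. Leaving out code Z was chosen after seeing the data.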

Additional observations from a re-analysis of the deposited data

Results flagged for a closer look

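Between chronic and acute hypoxia, Rac1, Dock2 and Elmo1 were picked out because the difference itself passed in limma with the code block. The log2 fold change of chronic against acute hypoxia was 0.508 for Rac1, 0.428 for Dock2 and 0.454 for Elmo1, with an adjusted p of 0.0169, 0.0249 and 0.0309. None passed without a block (0.113, 0.106 and 0.191), and with the block and rescaling only Rac1 did (0.0432, against 0.0797 for Dock2 and 0.0841 for Elmo1). Dock1 (0.373) was picked out because it was lower than standard oxygen in 3 of 3 acute pairs and higher in 3 of 3 chronic pairs, a pattern that Elmo1 also had. That choice fixes its chronic value above its acute value in every pair. Between chronic and acute hypoxia the limma adjusted p for Dock1 was 0.221 without a block and 0.0539 with the code block. It was 0.171 with that block and rescaling, and 0.0179 with that block and all 9 samples in 1 fit. Whether Dock1 passed therefore depended on the fit. The share of all genes that were lower in every acute pair and higher in every chronic pair was not computed.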

How the results depend on the processing

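For the 9 tested members the count that passed was 0 in each comparison in the main fit, which has no block. In acute hypoxia the count was 0 in every alternative run. In chronic hypoxia against standard oxygen it was 1 with a mean TPM of at least 5 (Rac1), 3 with all 9 samples in 1 fit, 4 with the replicate block from the sample code, 1 with that block and rescaling, 8 with that block and all 9 samples in 1 fit, and 0 to 2 when 1 library was left out. It was 1 (Elmo2) without standard replicate 2 and 2 (Rac1 and Dock2) without chronic replicate 3, both of code Z. Without all code Z libraries it was 5, and 6 with the block, beside 1855 and 3061 of 10924 genes that passed as higher. With all 9 samples in 1 fit 644 of 11067 genes passed as higher, and 2406 with the code block added. In chronic against acute hypoxia the counts were 1 with all 9 samples in 1 fit, 3 with either replicate block, which pair the libraries alike here, 1 with rescaling added, 6 with all 9 samples added, and 0 to 1 when 1 library was left out (1, Rac1, without chronic replicate 3). Without code Z they were 4, and 5 with the block, beside 1407 and 2148 of 10952 genes that passed as higher. With all 9 samples in 1 fit 312 of 11087 genes passed as higher, and 1958 with the code block added. The replicate block from the title numbers called 0 members against standard oxygen.

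Of the pathway genes, 0 passed in acute hypoxia in the main fit, 2 with the code block, 1 with rescaling added, 3 with all 9 samples added, 0 to 1 without 1 library (1 without standard replicate 2), and 5 and 4 without code Z, without and with the block. In chronic hypoxia against standard oxygen 6 passed, 3 with no filter, without the trend, with rescaling and with quantile normalization, 15 with all 9 samples, 0 with the title block, 31 with the code block, 18 with rescaling added, 43 with all 9 samples added, 0 to 10 without 1 library, and 42 and 63 without code Z. In chronic against acute hypoxia 3 passed, 0 with no filter, 1 without the trend, with rescaling and with quantile normalization, 10 with all 9 samples, 31 with either block, 19 with rescaling added, 44 with all 9 samples added, 0 to 8 without 1 library, and 27 and 50 without code Z. Over all genes the code block moved the count from 3 to 78, from 298 to 2039 and from 77 to 1724 in the 3 comparisons, and the title block to 0, 1 and 1724. The share of higher calls in chronic hypoxia fell with rescaling, to 115 higher and 118 lower against standard oxygen and 33 and 48 against acute hypoxia, from 232 and 66 and from 61 and 16.

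These members changed sign. Against standard oxygen in acute hypoxia, leaving out 1 library gave log2 fold changes of -0.008 to 0.115 for Cdc42, -0.174 to 0.044 for Dock1 and -0.002 to 0.082 for Rhoa. In chronic hypoxia Rac2 ranged from -0.104 to 0.052, and was 0.107 without code Z with or without the block. Between chronic and acute hypoxia, leaving out 1 library gave -0.084 to 0.046 for Crk and -0.011 to 0.125 for Rac2. There rescaling gave -0.087 for Rac2 and -0.002 for Elmo2, with or without the code block, and quantile normalization -0.062 for Rac2. The causes were not tested. Over all alternatives run, the smallest Rac1 value in chronic hypoxia against standard oxygen was 0.46, with rescaling.

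With 3 libraries a group and unknown depth, differences within the spread of replicates could not be resolved.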
